A study of Mus musculus with 6 samples.

Results

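The 10 genes described here encode proteins of the cellular antioxidant defence: Hmox1, Nqo1, Gclm, Gclc, Slc7a11, Txnrd1, Srxn1, Prdx1, Gsr and Gsta3. They were chosen as known targets of the transcription factors NRF2 and BACH1 and as glutathione genes, and every probe that the array files assign to them was used, which gave 14 probes of 55627 and 10 genes of 34755. Hmox1, Prdx1, Gsr and Gsta3 had 2 probes each and the other 6 genes had 1. The arrays measured RNA only, so they hold no value for BACH1 or NRF2 protein or for their binding to any of these genes.

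BACH1 is a repressor that sits on antioxidant response elements together with a small MAF protein and shuts the genes off. Heme releases it from DNA, and NRF2, which the adaptor KEAP1 and the ubiquitin ligase scaffold CUL3 otherwise send for degradation, can then take its place and switch the genes on under oxidative stress. In macrophages the pathway is known for heme breakdown after red cells are taken up and for limiting oxidative damage. The transcript of Bach1 is itself a known target of the miRNAs let-7 and miR-155, which recognise transcripts mainly through their seed, bases 2 to 8.

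The study precipitated AGO2, the Argonaute protein that holds miRNAs on their target transcripts, from mouse bone marrow-derived macrophages with and without Dicer, the enzyme that makes mature miRNAs. Dicer WT cells came from LysM-Cre/Dicer wt/wt/Apoe-/- mice and Dicer KO cells from LysM-Cre/Dicer flox/flox/Apoe-/- mice, aged 6 to 8 weeks. LysM-Cre is Cre recombinase under the lysozyme M gene, active in myeloid cells, and both genotypes carried it and lacked functional Apoe. Marrow cells were cultured for 7 days in medium with L929-conditioned supernatant, which supplies the macrophage growth factor M-CSF. For each genotype there was 1 array of input RNA (taken before precipitation), 1 of RNA precipitated with a monoclonal antibody to AGO2 (AGO2-RIP) and 1 of RNA precipitated with control IgG (IgG-RIP), 6 arrays in all. Every level below is the log2 processed signal of a probe minus the 75th percentile of its array, and every difference is a log2 difference of such levels. With 1 array per group a difference has no replicate check, so "at least 2-fold" states how large a difference was and nothing about its error.

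The array quality and the labels were examined before the genes. Between 37.6% and 46.3% of spots lay well above background, and repeat spots of the same probe had an SD of 0.17 to 0.20 on the log2 scale within an array. This makes an SD of 0.24 to 0.28 for a difference between 2 arrays, which covers the spots only and neither culture nor precipitation. Dicer1 (1 probe, mm9 chr12:105926064-105926123) gave 0.22, 0.93 and 0.18 on the WT input, AGO2-RIP and IgG-RIP arrays, and -0.55 and 0.94 on the KO input and AGO2-RIP arrays, while KO IgG-RIP read -2.24, which is too dim to count as signal. Which exons were floxed is not named in the labels, so the probe could sit in a part that Cre leaves in place, and its signal is no check of the deletion. The Apoe probe was above background on all 6 arrays, from -0.83 (WT AGO2-RIP) to 1.18 (KO IgG-RIP), though both genotypes are labelled Apoe-/-. Whether it lies in a part that the Apoe allele keeps was not examined, so it is no check of that label. All mice are labelled male, yet the brightest probe of Xist, the RNA of the inactive X chromosome, was above background on 3 of 3 arrays labelled WT and on 0 of 3 labelled KO. The reverse held for the Y-linked genes Ddx3y and Eif2s3y, which had signal on the 3 KO arrays and on 0 of the 3 WT ones, so genotype and sex cannot be told apart in any difference between KO and WT. Genotype also went with the row of the slide (KO on row 1, WT on row 2). Of 8 macrophage markers, 7 were above background on all 6 arrays, the exception being Lyz2, the gene that carries LysM-Cre, which was not so on the WT input and WT AGO2-RIP arrays. On the IgG-RIP arrays Lyz2 was 5.28 higher in KO than in WT, so its signal also went with genotype. The reason was not tested. The summed linear signal of the 8 macrophage markers was 858 to 1380 times the array's 75th percentile, against at most 5.93 for any of 7 lists of other cell types, and of 8 neutrophil genes 5 (Ly6g, Elane, Mpo, Ngp and Ltf) were above background on 0 arrays. The neutrophil genes S100a8 and S100a9 were above background on both inputs and on some precipitates, and Camp on the WT AGO2-RIP array.

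The promoters are shown because BACH1 and NRF2 act through short elements in the DNA before a gene. RefSeq's table for GRCm38.p6 gave the 250 bases before 9 start sites of 7 of the 10 genes. It was searched on both strands for 3 motifs: the antioxidant response element core TGACNNNGC, the site GCTGAGTCA bound by BACH1 with a small MAF protein, and the AP-1 site TGAGTCA. These overlap, since GCTGAGTCA contains TGAGTCA and its reverse complement matches the element core. The core was found before 4 genes (Gclm, Txnrd1, Prdx1 and Gsta3), GCTGAGTCA before 1 (Prdx1) and TGAGTCA before 2 (Srxn1 and Prdx1). Among all 32851 promoters of this length, 10.2% held the core, 0.39% held GCTGAGTCA and 4.46% held TGAGTCA. The sequences with a match run 5′ to 3′ on the gene's strand and end at the base before the start site, with the matches in capitals. Nfe2l2, the gene of NRF2, is included since its promoter also held the core.
Prdx1 (chr4:116685349-116685598, plus strand): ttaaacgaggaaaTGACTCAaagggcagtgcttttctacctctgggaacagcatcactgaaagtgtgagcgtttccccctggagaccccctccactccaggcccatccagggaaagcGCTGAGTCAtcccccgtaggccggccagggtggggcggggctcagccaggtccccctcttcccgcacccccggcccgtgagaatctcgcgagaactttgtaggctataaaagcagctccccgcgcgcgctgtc
Srxn1 (chr2:152105274-152105523, plus strand): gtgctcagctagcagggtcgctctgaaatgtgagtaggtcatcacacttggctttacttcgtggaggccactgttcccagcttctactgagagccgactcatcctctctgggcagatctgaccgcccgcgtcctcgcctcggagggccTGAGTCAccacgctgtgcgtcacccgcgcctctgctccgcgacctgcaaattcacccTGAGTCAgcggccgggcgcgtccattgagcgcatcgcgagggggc
Gclm (chr3:122245307-122245556, plus strand): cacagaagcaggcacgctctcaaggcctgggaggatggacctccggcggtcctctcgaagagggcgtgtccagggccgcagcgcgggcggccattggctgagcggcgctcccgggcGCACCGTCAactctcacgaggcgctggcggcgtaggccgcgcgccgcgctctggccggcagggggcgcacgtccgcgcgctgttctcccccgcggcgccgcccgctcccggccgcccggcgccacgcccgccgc
Txnrd1 (chr10:82858956-82859205, plus strand, the second of 3 start sites): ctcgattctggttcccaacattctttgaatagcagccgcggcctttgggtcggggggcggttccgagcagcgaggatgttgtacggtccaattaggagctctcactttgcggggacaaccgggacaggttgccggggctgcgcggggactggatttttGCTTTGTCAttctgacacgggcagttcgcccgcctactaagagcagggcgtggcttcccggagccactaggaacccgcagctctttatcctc
Gsta3 (chr1:21240335-21240584, plus strand): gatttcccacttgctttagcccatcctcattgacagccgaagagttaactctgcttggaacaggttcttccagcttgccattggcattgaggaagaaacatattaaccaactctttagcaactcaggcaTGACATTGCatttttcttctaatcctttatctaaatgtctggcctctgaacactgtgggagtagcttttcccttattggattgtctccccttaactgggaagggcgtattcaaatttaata
Nfe2l2 (chr2:75704664-75704913, minus strand): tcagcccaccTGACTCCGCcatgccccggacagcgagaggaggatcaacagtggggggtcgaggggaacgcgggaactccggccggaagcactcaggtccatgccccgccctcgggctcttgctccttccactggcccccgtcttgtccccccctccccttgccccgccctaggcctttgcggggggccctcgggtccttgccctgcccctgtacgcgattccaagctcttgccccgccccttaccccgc

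In Prdx1 the capitals mark a TGAGTCA on the reverse strand 237 bases before the start and the GCTGAGTCA that begins 133 bases before it. Srxn1 held TGAGTCA at 102 and at 45 bases before its start. The core began 134 bases before the start of Gclm (reverse strand), 92 bases before that of Txnrd1 (reverse strand), 121 before that of Gsta3 and 240 before that of Nfe2l2. No motif was found in the windows of Nqo1, Slc7a11 or Bach1, which says only that these letters are not in these bases. The seeds through which let-7 and miR-155 are known to bind the Bach1 transcript are in capitals in their mature forms, given because Bach1 stood high in the AGO2-RIP below. Neither miRNA was measured, and their part in the Bach1 values was not tested.
let-7a-5p: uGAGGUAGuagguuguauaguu
miR-155-5p: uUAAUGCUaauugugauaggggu

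Of the 10 genes, 7 were above background on all 6 arrays with their brightest probe (Hmox1, Nqo1, Gclc, Txnrd1, Srxn1, Prdx1 and Gsr). Gsta3 was so on 5 arrays, Gclm on 4 and Slc7a11 on none. The plot of levels by gene shows these values, where heights can be compared between arrays for 1 gene but not between genes.

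**Figure D1:**
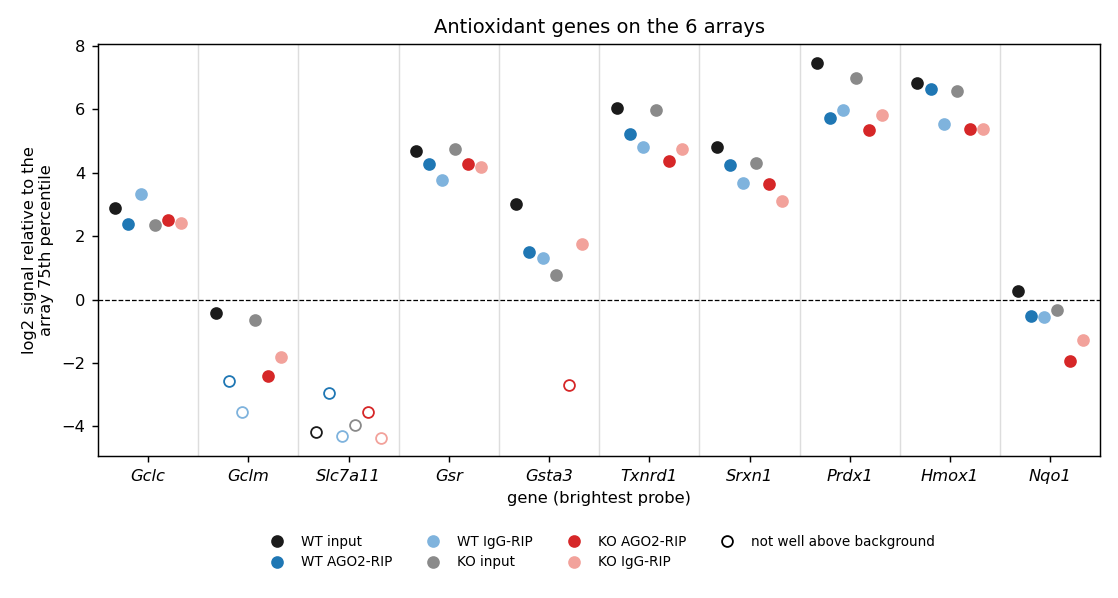
Log2 signal of the brightest probe of each gene relative to the array's 75th percentile (dashed line at 0) on each of the 6 arrays, with hollow points where the probe was not well above background. The hollow Gsta3 point at -2.69 on the KO AGO2-RIP array stands apart from its other 5 values, and all 6 Slc7a11 points are hollow.

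Glutathione, the main small antioxidant of the cell, is made in a step whose catalytic subunit is Gclc and whose modifier subunit is Gclm. Gclc (mm9 chr9:77641296-77641355) read 2.90, 2.39 and 3.34 on the WT input, AGO2-RIP and IgG-RIP arrays and 2.35, 2.53 and 2.42 on the KO arrays in the same order. Its WT IgG-RIP array was the highest of the 6, and the 3 KO arrays lay within 0.18 of each other. Gclm (mm9 chr3:121962174-121964809, a 60-base probe that spans 2636 bases of the genome) read -0.41 on WT input and -0.63 on KO input. It was lower in the KO precipitates, -2.41 with the AGO2 antibody and -1.81 with IgG, and not well above background in either WT precipitate (-2.55 and -3.54). In WT its AGO2-RIP signal was therefore at least 4.41-fold below input and its IgG-RIP signal at least 3.08-fold below it. Slc7a11, the transporter that brings in cystine for glutathione synthesis (mm9 chr3:50169700-50169759), was not well above background on any array, with values from -4.35 to -2.96, so no difference is given for it.

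Gsr reduces oxidised glutathione back to its active form. Its brightest probe (mm9 chr8:34808488-34808547) read 4.67, 4.27 and 3.78 on the WT input, AGO2-RIP and IgG-RIP arrays and 4.74, 4.27 and 4.19 on the KO arrays. The inputs were the highest in both genotypes and the genotypes overlapped. A second Gsr probe (mm9 chr8:34808413-34808472) gave 4.59, 4.02, 3.49, 4.69, 3.81 and 3.78 in the same order of arrays.

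Gsta3 is an alpha-class transferase that joins glutathione to reactive compounds. Its brightest probe (mm9 chr1:21255043-21255102) read 3.01, 1.51 and 1.33 on the WT input, AGO2-RIP and IgG-RIP arrays and 0.79, -2.69 and 1.75 on the KO arrays, the KO AGO2-RIP value being not well above background. The second probe (mm9 chr1:21255189-21255248) read 1.40, 0.27, 0.14, -0.51, -3.36 and 0.16, again with only the KO AGO2-RIP value below that mark. KO input was thus below WT input by both probes, and both put the KO AGO2-RIP array far below the other 5. The KO AGO2-RIP signal was at least 19.6-fold below KO IgG-RIP by the brightest probe and at least 6.51-fold by the other, at least 10.1-fold and 4.09-fold below KO input, and at least 16.6-fold and 7.03-fold below WT AGO2-RIP. Of 7607 genes that were at or above the 75th percentile on the other 5 arrays, Gsta3 was the only 1 not well above background on the KO AGO2-RIP array. The same count was 48 of 7998 genes for the WT IgG-RIP array, 29 of 7795 for KO IgG-RIP, and 0 for the WT input, KO input and WT AGO2-RIP arrays. Related alpha-class transferases are similar in sequence and could share a probe's signal, which was not tested.

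The thioredoxin branch hands electrons to peroxiredoxins, which destroy hydrogen peroxide. Txnrd1, the cytosolic thioredoxin reductase (mm9 chr10:82360230-82360289), read 6.05, 5.23 and 4.81 on the WT input, AGO2-RIP and IgG-RIP arrays and 5.99, 4.37 and 4.74 on the KO arrays. The inputs lay within 0.05 of each other, all 4 precipitates lay below them, and KO AGO2-RIP was the lowest. Srxn1, which repairs over-oxidised peroxiredoxins (mm9 chr2:151937009-151937068), read 4.82, 4.26 and 3.69 in WT and 4.30, 3.63 and 3.10 in KO, in the order input, AGO2-RIP, IgG-RIP from high to low in both genotypes, with each KO array below its WT counterpart. Prdx1, a cytosolic peroxiredoxin (mm9 chr4:116371818-116371877), read 7.47, 5.75 and 5.99 in WT and 7.00, 5.34 and 5.82 in KO. Its inputs stood over 1 log2 unit above all 4 precipitates. The second Prdx1 probe (mm9 chr4:116372422-116372481) gave 5.01, 3.34 and 3.30 in WT and 4.45, 3.17 and 3.64 in KO. Its inputs too were above all 4 precipitates, though KO IgG-RIP minus input was only -0.80.

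Hmox1 opens the heme ring to biliverdin, iron and carbon monoxide and is the textbook target of BACH1. Its brightest probe (mm9 chr8:77624207-77624266) read 6.84, 6.65 and 5.53 on the WT input, AGO2-RIP and IgG-RIP arrays and 6.58, 5.38 and 5.37 on the KO arrays. Both inputs and the WT AGO2-RIP array formed a high set and the other 3 precipitates a low one. The second probe (mm9 chr8:77620797-77620856) read 3.78, 3.32 and 2.10 in WT and 3.79, 3.83 and 3.27 in KO, so it was low on the WT IgG-RIP array only. Nqo1, a reductase that detoxifies quinones (mm9 chr8:109912440-109912499), read 0.26, -0.51 and -0.55 in WT and -0.31, -1.94 and -1.26 in KO, with each KO array below its WT counterpart.

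**Figure D2:**
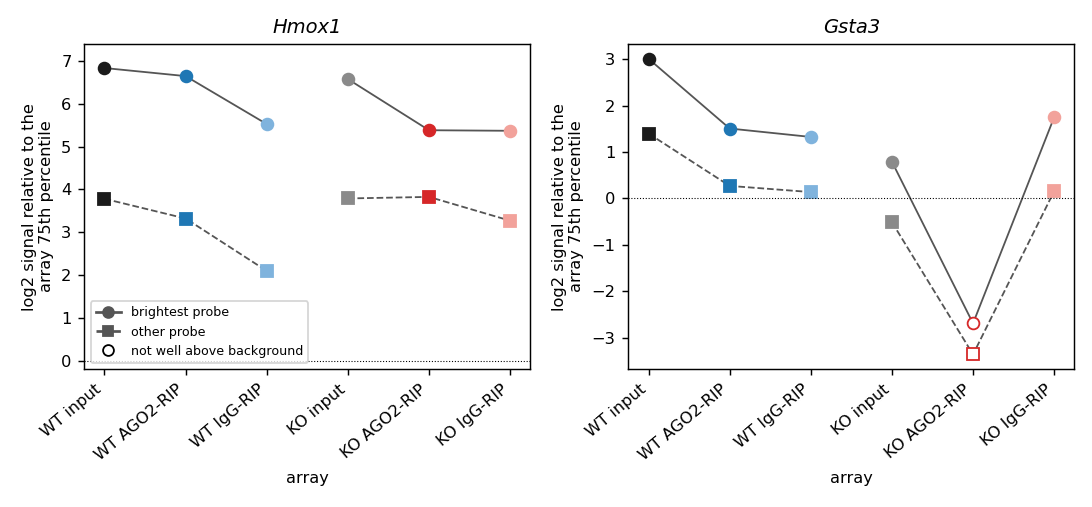
Log2 signal relative to the array's 75th percentile for both probes of Hmox1 (left) and of Gsta3 (right) on the 6 arrays, lines joining the arrays of a genotype and hollow points marking values not well above background. The Hmox1 probes part on the KO AGO2-RIP array (5.38 against an input of 6.58, and 3.83 against 3.79), whereas both Gsta3 probes are hollow there.

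The 4 genes with 2 probes gave 36 differences measured by both over all comparisons, and the probes had the same sign in 29 of them. The median gap between the probes was 0.28 and the largest, for Hmox1 between the KO and WT AGO2-RIP arrays, was 1.77.

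The input arrays compare RNA levels in cells with and without Dicer. In KO input 8 of the 9 genes that could be measured were below WT and 1 above, with a median of -0.47 against -0.08 over 14663 genes, and 7 of 9 lay below that all-gene median. Gsta3 was the lowest, at -2.22 (4.65-fold) by its brightest probe and -1.91 (3.76-fold) by the other, and 10 of the 14663 genes were lower still. It was the only 1 of 9 at least 2-fold lower, where 1.73% of all genes were, and 0 of 9 were at least 2-fold higher, where 1.02% were. Nqo1 (-0.58), Gclc (-0.54) and Srxn1 (-0.52) followed, each beyond 2 times the SD between spots (0.49). Of all 14663 genes, 10.0%, 11.5% and 12.5% were lower than these, in that order. Fewer cells of a type and less RNA per cell cannot be told apart in such RNA. Prdx1 (-0.47), Hmox1 (-0.26), Gclm (-0.22), Txnrd1 (-0.05) and Gsr (0.07) lay within 2 times the spot SD. The second probe gave 0.01 for Hmox1 and -0.56 for Prdx1, which is beyond it. The neutrophil gene S100a9 was also lower in KO input (-1.42), with S100a8 at -0.23, and the summed signal of the 8 neutrophil genes was 1.75 times the array's 75th percentile in WT input and 1.07 in KO input. Their part in the lower values of the antioxidant genes was not tested. Among genes above background on all 6 arrays, which leaves Gsta3 and Gclm out, 0 of the 7 were 2-fold lower.

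In the precipitates the KO and WT arrays were compared in the same way. On the AGO2-RIP arrays Hmox1 (-1.26, 2.40-fold) and Nqo1 (-1.43, 2.70-fold) were at least 2-fold lower in KO, 2 of 7 measured genes against 11.0% of all genes, and 0 were 2-fold higher against 6.89%. The second Hmox1 probe went the other way (0.51), and the median of both probes took Hmox1 to -0.38. Gsta3 is not among the 7, since its KO AGO2-RIP reading gives only the bound stated above, at least 16.6-fold below WT. Scaled to the 75th percentile of the probes detected on all arrays, or by quantile normalization, Hmox1 fell short of 2-fold (-0.98 and -0.99). Txnrd1 (-0.86) and Srxn1 (-0.63) were also beyond 2 times the spot SD (0.49), while Prdx1 (-0.41), Gsr (0.01) and Gclc (0.14) were not. Of all 16392 genes, 14.6% were lower than Txnrd1 and 22.0% were lower than Srxn1. On the IgG-RIP arrays 0 of 8 genes were at least 2-fold higher or lower by their brightest probes, where 11.0% and 8.93% of all genes were. By these probes the members ran from -0.92 (Gclc) to 0.43 (Gsta3). The second Hmox1 probe gave 1.17 there (2.26-fold higher in KO), against -0.16 by the brightest.

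The comparison of AGO2-RIP with IgG-RIP asks which transcripts the AGO2 antibody took down beyond the background of the beads. In WT the 8 measured genes ran from -0.95 (Gclc) to 1.12 (Hmox1), with a median of 0.30 against -0.24 over 15213 genes. Hmox1 alone was at least 2-fold higher (2.17-fold, and 2.34-fold by its second probe), 1 of 8 against 20.3% of all genes, and 0 of 8 were 2-fold lower against 22.2%. Srxn1 followed at 0.57, and Gsr (0.49), Txnrd1 (0.42), Nqo1 (0.04), Gsta3 (0.18) and Prdx1 (-0.24) lay within 2 times the spot SD (0.52). The Hmox1 count was lost under other scalings. Scaled to the 75th percentile of the probes detected on all arrays, Hmox1 had 0.72, Gclc was instead at least 2-fold lower (-1.35), and the members' median turned to -0.11 against -0.65 over all genes. With quantile normalization Hmox1 had 0.80, Gclc -1.39, and the members' median was 0.046 against -0.32. In KO the 8 measured genes ran from -0.68 (Nqo1) to 0.53 (Srxn1) with a median of -0.18 against -0.19 over all genes. None reached 2-fold: 0 of 8 were higher against 10.5% of all genes and 0 were lower against 9.91%. Gsta3 is not among these 8, since its KO AGO2-RIP value gives only the bound stated above.

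The WT minus KO difference of the AGO2-RIP over IgG-RIP values could be taken for 7 genes and is untested. Hmox1 had 1.11 (0.67 by the second probe), Txnrd1 0.79, Nqo1 0.72, Gsr 0.40, Prdx1 0.24 and Srxn1 0.03, while Gclc had -1.05. The counts past 2-fold were 1 of 7 higher, against 20.2% of 14051 genes, and 1 of 7 lower, against 16.5%. Under the same 2 scalings the Hmox1 difference was 0.73 and 0.75, which left 0 of 7 higher. For Gclc the WT value was -0.95 and the KO value 0.11, and its WT IgG-RIP array was the highest of its 6.

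The genes that control the pathway were read on the same arrays. Bach1 (mm9 chr16:87733532-87733591) read 0.72, 3.32 and 0.10 on the WT input, AGO2-RIP and IgG-RIP arrays and 1.46, 2.32 and 0.42 on the KO arrays. Nfe2l2, which encodes NRF2 (mm9 chr2:75513771-75513830), read 2.36, 5.26 and 1.22 in WT and 2.60, 3.68 and 1.77 in KO. For both genes the AGO2-RIP array was the highest of each genotype and the IgG-RIP array the lowest, and the WT AGO2-RIP array was the highest of all 6.

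AGO2-RIP over IgG-RIP was 3.21 (9.27-fold) for Bach1 in WT and 1.89 (3.72-fold) in KO, a WT minus KO difference of 1.32. For Nfe2l2 it was 4.04 (16.5-fold) in WT and 1.90 (3.73-fold) in KO, a difference of 2.14. Of 15213 genes in WT, 99 exceeded Nfe2l2 and 326 exceeded Bach1, and of 15647 in KO, 408 and 414 did. Of 14051 genes, 1930 exceeded the WT minus KO difference of Bach1 and 649 that of Nfe2l2, and 20.2% were at least 2-fold higher. Over input the values were 2.59 in WT and 0.86 in KO for Bach1 and 2.91 and 1.07 for Nfe2l2. In WT 284 of 14418 genes exceeded Bach1 over input and 192 exceeded Nfe2l2. In KO 2631 of 15286 genes exceeded Bach1 over input and 2039 exceeded Nfe2l2. In input RNA Bach1 was 0.74 higher in KO (1.67-fold), with 450 of 14663 genes higher still, and Nfe2l2 was 0.24 higher. Each gene has 1 probe, so no second probe checks these values.

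**Figure D3:**
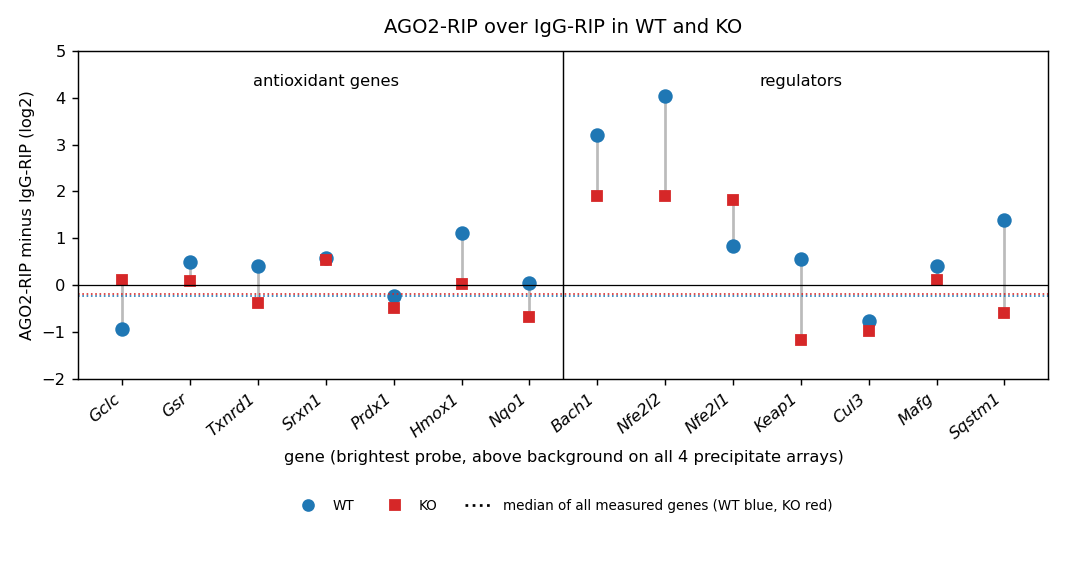
AGO2-RIP minus IgG-RIP (log2) in WT (blue circles) and KO (red squares) for the 7 antioxidant genes and 7 regulators measured on all 4 precipitate arrays, with dotted lines at the medians of all measured genes. Bach1 and Nfe2l2 stand at 3.21 and 4.04 in WT and at 1.89 and 1.90 in KO, whereas the antioxidant genes lie between -0.95 and 1.12.

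The other regulators were read from the same list. Nfe2l1, an NRF2 relative, had AGO2-RIP over IgG-RIP values of 0.83 in WT and 1.83 in KO, Keap1 had 0.55 and -1.19, and Cul3 had -0.78 and -0.98. Sqstm1, whose product p62 binds KEAP1, had 1.38 and -0.60 by its brightest probe, while its second probe, well above background on the WT IgG-RIP and KO AGO2-RIP arrays only, was at least 2.17-fold below IgG-RIP in WT and at least 1.41-fold above it in KO. Mafg, a small MAF partner of BACH1 and NRF2, had 4 probes that did not go together, from -0.98 to 2.52 in WT and from -1.10 to 2.53 in KO. Mafk, another small MAF gene, was above background on 3 arrays, the relative Bach2 was so on 1, and Maff on none. Of the 7 regulators measured on all 4 precipitates, 3 in WT (Bach1, Nfe2l2 and Sqstm1) and 3 in KO (Bach1, Nfe2l2 and Nfe2l1) were at least 2-fold above IgG-RIP, where 20.3% of all genes in WT and 10.5% in KO were.

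Against input, most of the antioxidant transcripts had lower relative signals in the precipitates. In WT AGO2-RIP 8 of 8 measured genes were below input, with a median of -0.67 against -0.24 over 14418 genes. Prdx1 (-1.73) and Gsta3 (-1.50) were at least 2-fold lower, 2 of 8 against 26.4% of all genes, and 0 of 8 were 2-fold higher against 14.8%. In KO AGO2-RIP 7 of 8 were below input, with a median of -1.41 against -0.24 over 15286 genes. Hmox1 (-1.20), Nqo1 (-1.63), Gclm (-1.78), Txnrd1 (-1.62) and Prdx1 (-1.67) were at least 2-fold lower, 5 of 8 against 26.4%, and 0 were higher against 14.6%. The second Hmox1 probe gave 0.04 there and the second Prdx1 probe -1.27.

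The control precipitate, which lacks the AGO2 antibody, was also compared with input. In WT IgG-RIP 7 of 8 genes were below input, with a median of -1.18 against -0.45 over 13349 genes, and 5 of 8 (Hmox1, Txnrd1, Srxn1, Prdx1 and Gsta3) were at least 2-fold lower against 37.0%. In KO IgG-RIP 7 of 9 were below input, with a median of -1.18 against -0.26 over 14337 genes, and 5 of 9 (Hmox1, Gclm, Txnrd1, Srxn1 and Prdx1) were at least 2-fold lower against 28.8%. No member was 2-fold higher in either, where 18.6% of all genes in WT and 17.5% in KO were. Gclc was above input in both (0.44 and 0.07). Gsta3 went opposite ways, at -1.68 in WT and 0.96 in KO (-1.26 and 0.67 by its second probe), and its KO input array was the lower of the inputs.

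These counts moved with the scaling. Scaling to the 75th percentile of the probes detected on all arrays moved the all-gene median of IgG-RIP minus input from -0.45 to 0.31 in WT and from -0.26 to 0.32 in KO, and left 0 members 2-fold lower in either. Relative to the all-gene median, 7 of 8 members in WT and 7 of 9 in KO lay below it under that scaling too. With quantile normalization, which changes the spread as well, 3 of 8 in WT and 6 of 9 in KO did.

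**Figure D4:**
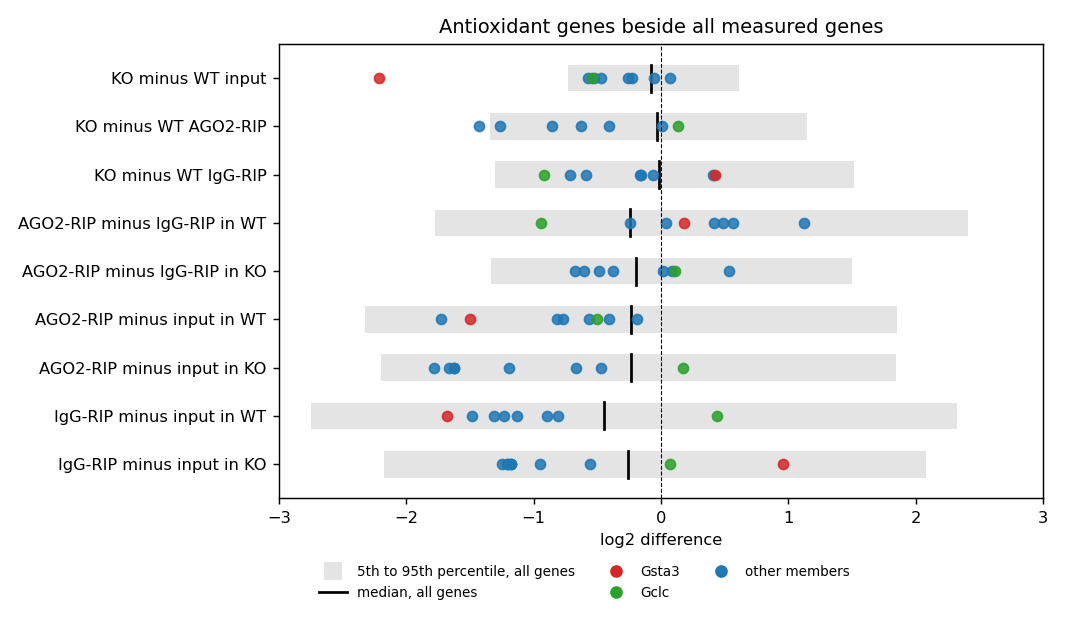
Log2 differences of the measured antioxidant genes (points, Gsta3 in red and Gclc in green) in 9 comparisons, beside the 5th to 95th percentile (grey band) and the median (black line) of all measured genes. Most points lie left of the black line in the 4 comparisons with input, and Gsta3 at -2.22 lies outside the band in KO minus WT input.

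Limma tested what the 2 genotypes share and, over the 3 fractions together, the difference between them. In this fit, over all 6 arrays with terms for fraction and genotype on 18887 genes, 9 members were tested. For IgG-RIP over input, Gclm fell by 2.15 on the log2 scale (SE 0.58, limma adjusted p = 0.0453) and Prdx1 fell by 1.33 (SE 0.38, limma adjusted p = 0.0495), each lower in 2 of 2 genotypes. These were 2 of 9 members against 15.8% of all genes that fell and 30.2% called in either direction. An unadjusted limma p under 0.05 was found for 5 of 9 members, against 46.9% of all genes. The Gclm value uses its dim WT readings as measured. Neither call held under quantile normalization (limma adjusted p = 0.0610 for Gclm and 0.360 for Prdx1), and over the fits that left out 1 array, 0 to 1 members passed.

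For AGO2-RIP over input 0 of 9 members passed, against 10.2% of all genes. An unadjusted limma p under 0.05 was found for 4 of 9 (Gclm, Nqo1, Prdx1 and Txnrd1), against 33.5% of all genes. Prdx1 came closest, at -1.70 (SE 0.38, limma adjusted p = 0.0510). For AGO2-RIP over IgG-RIP 0 of 9 members passed, against 0.00% of all genes, and 0 members and 3553 of 18887 genes had an unadjusted limma p under 0.05. In the same fit Bach1 had 2.55 (SE 0.54, limma adjusted p = 0.117) and Nfe2l2 had 2.97 (SE 0.62, limma adjusted p = 0.116), higher in 2 of 2 genotypes. Their adjusted p was 0.0252 and 0.0236 in a fit restricted to the 12384 genes with signal on all 6 arrays, and 0.512 and 0.495 without the WT AGO2-RIP array. The restricted fit called 578 of its 12384 genes for AGO2-RIP over IgG-RIP, where the fit on 18887 genes called 0. Limma here takes the genotype by fraction interaction as its error, so it is a weak test for genes that AGO2 holds in 1 genotype only.

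For KO over WT across the 3 fractions 0 of 9 members passed, against 0.00% of all genes, and 1 member (Nqo1) and 838 of 18887 genes had an unadjusted limma p under 0.05. Nqo1 had -0.91 (SE 0.34, limma adjusted p = 1.00) and Srxn1 -0.58 (SE 0.30, limma adjusted p = 1.00), each lower in KO in 3 of 3 fractions. Gsta3 had -2.00 (SE 0.88, limma adjusted p = 1.00), with its dim KO AGO2-RIP reading as measured and its KO IgG-RIP value above WT. Nothing in the labels says that the 3 fractions of a genotype come from separate cultures, so they may not be replicates of it.

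Other genes of the same pathways were counted from lists. For IgG-RIP over input, 11 of 21 tested genes of glutathione metabolism fell in limma and 0 rose, where 15.8% of all genes fell and 14.3% rose. Ggct (-2.86, adjusted p = 0.0200), Gpx1 (-2.28, adjusted p = 0.0217) and Gstm1 (-2.22, adjusted p = 0.0211) were among them, each above background on all 6 arrays. Mgst2 (adjusted p = 0.0243) and Gstk1 (adjusted p = 0.0325) were too dim on both IgG-RIP arrays, and Gstm5 (adjusted p = 0.0258) on that of KO, for a size to be given. In the thioredoxin and peroxiredoxin list 3 of 12 fell (Prdx2, Prdx4 and Txn1, from -1.92 to -1.73). In heme and iron handling 3 of 14 fell (Blvra and Blvrb, the biliverdin reductases that act after Hmox1, and Hmox2, the constitutive heme oxygenase, from -2.17 to -1.71). In NADPH supply 2 of 6 fell (Idh1 and Tkt, at -1.51 and -1.45), in superoxide and peroxide removal 2 of 3 (Sod1 and Sod2, at -1.83 and -2.27), and among the regulators 1 of 8 (Nfe2l1, at -1.75). These list counts were made with the main scaling only. Scaled to the 75th percentile of the probes detected on all arrays, the genes that fell went from 2993 to 1089 of 18887. Those that rose went from 2706 to 4280.

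For AGO2-RIP over input limma called Chac1, which degrades glutathione, higher by 5.28 (SE 0.40, adjusted p = 0.0374, with KO input too dim for a measured difference), and Gpx4 (-2.53), Gstm1 (-1.93), Blvra (-2.20) and Sod1 (-2.04) lower. These were 3 of 21 glutathione genes, 1 of 14 heme and iron genes and 1 of 3 superoxide genes, with 0 in the other lists, where 4.46% of all genes rose and 5.77% fell. With quantile normalization AGO2-RIP over input called 0 of 18887 genes, so none of these calls held there. For AGO2-RIP over IgG-RIP none of the 6 lists had a call.

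The sizes over IgG-RIP, with no test, were as follows for the other antioxidant lists. In WT 6 of 18 measured glutathione genes were at least 2-fold above IgG-RIP and 2 below, with Chac1 (5.27) and Gpx3 (3.22) the highest and Gstz1 (-1.09) and Glrx2 (-1.02) the lowest. In the thioredoxin and peroxiredoxin list 6 of 11 were above, led by Sesn2 (3.14), a stress-induced regulator of peroxiredoxins, and Prdx4 (3.03), and 1 below. Heme and iron handling had 7 of 14 above, led by the iron exporter Slc40a1 (3.04) and the iron importer Slc11a2 (2.30), and 0 below. A gene above IgG-RIP was not always above input. In WT AGO2-RIP minus input was 1.81 for Slc40a1 but -0.18 for Slc11a2, whose IgG-RIP minus input was -2.48. For Hmox2 and Blvrb, also among the 7, it was 0.42 and -1.73. For Chac1, Gpx3, Sesn2 and Prdx4 it was 5.15, 1.12, 2.30 and 1.11. In KO the counts above were 4 of 17, 4 of 10 and 2 of 14. These stand beside 20.3% of all genes in WT and 10.5% in KO, and the lists were not tested against each other. In NADPH supply the values ran from -0.52 (Pgd) to 1.95 (G6pdx) in WT and from -0.58 (Pgd) to 0.85 (Idh1) in KO. In superoxide and peroxide removal they ran from -0.66 (Cat) to 1.18 (Sod2) in WT and from -0.63 (Cat) to 0.73 (Sod2) in KO.

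The profile of the brightest Hmox1 probe over the 6 arrays was set against those of 8562 genes with an assigned symbol and above background on all 6. The second Hmox1 probe, whose KO AGO2-RIP minus input was 0.04 against -1.20, was not used. The 5 closest by Pearson r over 6 arrays were Rbbp7 (0.997), Slc38a1 (0.995), Tpm2 (0.990), Mark4 (0.988) and Slc25a17 (0.985). Among the antioxidant genes Srxn1 had 0.928 and Txnrd1 0.898, Nqo1 0.818, Prdx1 0.728, Gsr 0.711 and Gclc -0.18. With 6 points that share 3 fractions these are descriptions with no test.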

How the data were processed

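RNA of 6 samples (2 genotypes, 3 fractions, 1 array each) was measured on 1-colour Cy3 arrays of 60-base probes. Per the labels' protocols, each array received 500 ng of amplified, digested and randomly primed cDNA, so values are relative abundances and the amount of RNA precipitated is not measured. The deposited values are processed intensity in linear units from Agilent Feature Extraction 10.7.3.1, per the submitters' processing notes, with background subtracted and spatial trends removed but no normalization between arrays, per the file headers. Probe coordinates are those of the array files (mm9). No genome of that build was used here, so exon and UTR positions are not given.

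Spots with an outlier flag were left out, which lost 54 probes, and spots of a probe were averaged. From each log2 intensity the 75th percentile of the array's non-control spots was subtracted, and a gene is read by whichever of its probes is brightest on average. Names were updated through RefSeq accessions (27634 probes), symbols (3399) or synonyms (320), and 24274 kept the array's name. No probe gained a member's name this way (0). A difference is given where a gene is well above background on every array compared. Against an array where it is not, the text gives "at least N-fold": the bright value against the dim reading or, where that is greater, against the dimmest spot well above background there.

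The fractions over both genotypes, and later the genotypes over all fractions, were tested with limma 3.58.1 in R 4.3.3 (lmFit and eBayes with terms for fraction and genotype, two-sided, adjusted after Benjamini and Hochberg, threshold 0.05), on the 18887 genes that had signal on at least 2 arrays. The procedure was also run on simulated data with independent noise on each array and no genotype by fraction interaction. That run therefore says nothing about the error in these data. Nothing in the labels says whether samples come from separate animals, so p-values measure only the spread between these arrays, which may be technical. Other steps used Python 3.11.15, numpy 2.4.6, pandas 2.3.3 and matplotlib 3.10.9.

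Named were all 10 members with every probe, the measured regulators, of each other list its 2 highest and 2 lowest genes in a comparison described, or fewer, and the 5 genes most like Hmox1. Genes of other lists that passed limma were named after their values were seen. The members and lists were chosen with earlier results of these data known.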

Additional observations from a re-analysis of the deposited data

Results flagged for a closer look

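Gclc and Gsta3 each had values of opposite sign in the 2 genotypes. AGO2-RIP minus IgG-RIP for Gclc was -0.95 in WT and 0.11 in KO, a WT minus KO difference of -1.05, and it ran from -1.47 to -0.74 over 7 alternative settings. Its KO value lies within 2 times the SD between spots (0.52), so no change is measured in KO. IgG-RIP minus input for Gsta3 was -1.68 in WT and 0.96 in KO, a WT minus KO difference of -2.64, with the second probe at -1.26 and 0.67. With 1 array per group neither difference was tested.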

How the results depend on the processing

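Counts below are of antioxidant genes at least 2-fold apart, or past the limma threshold where limma is named. With the 75th percentile of probes detected on all arrays, and also with quantile normalization, the counts were 0 higher and 1 lower for AGO2-RIP minus IgG-RIP in WT, 0 higher for its WT minus KO difference, 1 higher for IgG-RIP minus input in WT and in KO, 1 lower for KO minus WT AGO2-RIP and for KO minus WT IgG-RIP, and 0 in limma for IgG-RIP over input. IgG-RIP minus input had 0 lower in both genotypes with the first of these scalings, and 1 lower in WT and 2 in KO with quantile normalization, which also gave 1 lower in WT and 2 in KO for AGO2-RIP minus input. Median centring gave 3 higher and 0 lower for the WT minus KO difference, 4 lower for AGO2-RIP minus input in WT, and 1 and 5 in limma for AGO2-RIP and IgG-RIP over input. Normexp gave 0 lower for the WT minus KO difference, 3 lower for AGO2-RIP minus input in KO, 1 lower for KO minus WT AGO2-RIP, and 1 and 4 in limma. The median of a gene's probes gave 0 higher for the WT minus KO difference, 3 lower for IgG-RIP minus input in KO, 1 lower for KO minus WT AGO2-RIP and 1 in limma for IgG-RIP over input. It also reversed Sqstm1 to -0.078 for AGO2-RIP minus IgG-RIP in WT, -0.55 for the WT minus KO difference and -0.34 for KO minus WT IgG-RIP, all of which average in a second probe that was well above background on 2 of 6 arrays. With no filter on dim genes there was 1 lower for AGO2-RIP minus IgG-RIP in KO and 2 higher in WT, 3 higher for the WT minus KO difference, 1 higher for AGO2-RIP minus input in WT and for KO minus WT IgG-RIP, and 0 in limma for IgG-RIP over input. Genes above background on all 6 arrays gave 1 lower for AGO2-RIP minus input in WT, 0 lower for KO minus WT input, and 3 and 4 in limma. Leaving out each array in turn gave 0 to 3 in limma for AGO2-RIP over input and 0 to 1 for IgG-RIP over input, with 3 without the WT IgG-RIP or without the KO IgG-RIP array. For AGO2-RIP over input the fits without 1 or the other IgG-RIP array rest on the same input and AGO2-RIP arrays, so they are the same test. Why the other counts moved was not tested. The KO over WT test, added after the data were seen, called 0 members in every one of these fits. The other 138 counts, these included, lay within 1.5 times the main ones.

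The share of higher genes among all genes past 2-fold moved with the scaling: for AGO2-RIP minus IgG-RIP in WT it was 47.7%, and 27.6% to 68.5% over the 4 other scalings and background corrections, and for IgG-RIP minus input in WT 33.5%, and 17.8% to 62.8%. The values named first kept their sign: Gsta3 in KO minus WT input ran from -2.22 to -1.76, and AGO2-RIP minus IgG-RIP from 2.72 to 3.51 in WT and 1.58 to 2.06 in KO for Bach1 and from 3.64 to 4.34 and 1.82 to 2.02 for Nfe2l2. Limits come from 1 array per group, from probes near background (Slc7a11, Gclm) and from genotype, sex and slide row that cannot be told apart. The limma fit compares fractions within genotype through its genotype term. No block by replicate number could be fitted, since the labels carry no such numbers.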
